A study of Mus musculus with 8 samples.

Results

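The effect of diet-induced obesity on adipose tissue macrophages (ATMs) was measured here in experiments 2, 3 and 4 of the series, which gave 6 of its 8 arrays. Each experiment had 1 array of ATMs from obese mice on a high-fat diet (HFD) and 1 array of ATMs from lean mice on a low-fat diet (LFD), and arrays were paired by experiment number. All mice were male wildtype C57Bl/6, and the cells were taken from epididymal fat by magnetic selection for F4/80, the macrophage surface protein that Adgre1 encodes. Fat, as lard, supplied 60% of the HFD's energy in experiments 2 and 4, 45% in experiment 3, and 10% of that of the LFD. According to the sample labels the diets lasted 15, 16 and 10 weeks in experiments 2, 3 and 4, while the study's methods describe a single period of 16 weeks, so the length of diet is unsettled. Each array holds RNA of a pool of mice, so the spread between mice of a pool is not seen, and the 3 experiments also differ in fat content and weeks of diet, which cannot be told apart.

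Experiment 1 was left out because of 2 measured features, so its arrays were chosen by their levels and those levels are given as a description, without a test. Fat supplied 45% of the energy of its HFD and 10% of that of its LFD. Its labels give 16 weeks of diet, as in experiment 3. Levels are the deposited log2 values, on which a difference of 1 is a factor of 2. Adgre1 (chr17:57358581-57483529, GRCm38.p6) had a level of 6.54 in the LFD pool and 8.58 in the HFD pool of experiment 1. In experiments 2, 3 and 4 it was 10.27, 10.95 and 9.95 in the LFD pools and 10.70, 10.67 and 10.19 in the HFD pools. All 6 arrays lay above both arrays of experiment 1, and the array nearest to them was the LFD pool of experiment 4. The mean of 20 endothelial markers was 10.42 (LFD) and 10.08 (HFD) in experiment 1, against 5.46 to 8.87 on the other arrays. The mean of 15 pan-macrophage markers was 7.71 and 8.96 in experiment 1 and 10.2 to 10.9 on the other arrays.

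Macrophages of adipose tissue clear dying cells and take up lipid. In obesity, macrophages that gather around dying fat cells carry the integrin Itgax (CD11c) and the lipid receptor Trem2, and are known as lipid-associated macrophages. They break down lipid in lysosomes, which the vacuolar H+-ATPase acidifies. Resident macrophages near vessels, by contrast, carry scavenger receptors such as Cd163 and Lyve1.

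No gene passed an adjusted p under 0.05 for HFD against LFD in limma with experiment as a block (0 of 18820 genes, 0%, smallest adjusted p = 0.165). The unadjusted p is called nominal below, and by a nominal p under 0.05 ATMs from obese mice had 1346 higher genes (7.15%) and 616 lower genes (3.27%). In each of experiments 2, 3 and 4, 3270 genes (17.4%) were higher and 2297 (12.2%) lower, so these shares are the background for every list below. Every HFD pool lay above every LFD pool for 1561 of the 18820 genes, and below every LFD pool for 852. These counts are the background wherever diets are said not to overlap. Exact tests of 1 gene cannot go below p = 0.25 with 3 pairs or 0.1 with 3 pools against 3. Experiment accounted for 40.3% of the variance over all genes (2 degrees of freedom), diet for 28.4% (1) and the remainder for 31.3% (2). In PCA the diets lay apart on PC2 (32.2% of the variance), and on PC1 (40.5%) they did not. Over all genes, the differences of experiments 2 and 3 correlated at 0.314, those of experiments 2 and 4 at 0.43 and those of experiments 3 and 4 at -0.0766. These are correlations across genes, which are not independent replicates.

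Endothelial genes were still present on every array and moved in opposite ways. The mean of the 20 endothelial markers was 8.36, 5.46 and 8.87 in the LFD pools of experiments 2, 3 and 4, and 7.50, 7.50 and 7.16 in the HFD pools. It was thus lower with HFD in experiments 2 and 4 and higher in experiment 3, and 0 of the 20 markers had the same direction in all 3. Of the 20, 19, 0 and 20 were lower in experiments 2, 3 and 4. Endothelial levels were used to leave out experiment 1, so these counts are a description only. The 10 mural cell markers did the same (0 of 10), with mean levels of 5.05 to 7.40 in LFD and 6.34 to 7.08 in HFD pools. The mean of 11 fibroblast markers ran from 5.80 to 7.94 in LFD and from 7.10 to 8.65 in HFD pools, and 10, 11 and 3 of the 11 were higher in experiments 2, 3 and 4. The collagens Col1a1, Col3a1 and Col6a3 were the 3 with the same direction in all 3 experiments (higher), and the other 8 were mixed. Pan-macrophage markers had means of 10.2 to 10.9 in LFD and 10.4 to 10.6 in HFD pools, with a median difference of 0.03. Their medians were 0.06, -0.16 and 0.22 in experiments 2, 3 and 4, where 10, 2 and 12 of the 15 were higher. In bulk RNA, fewer cells of a type and less RNA per cell cannot be told apart. The part of these cells in the results below was not tested.

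**Figure D1:**
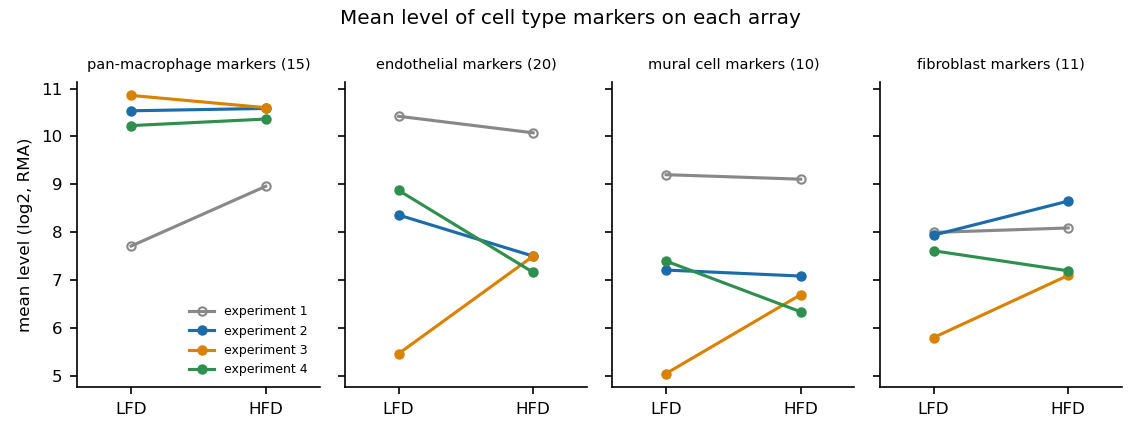
Mean log2 level (vertical axis) of the markers of 4 cell types in the LFD and HFD pools, 1 line per experiment, with experiment 1 as open grey points. Endothelial markers were lower with HFD in experiments 2 and 4 and higher in experiment 3, where the LFD pool had the lowest mean (5.46).

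The gene with the smallest p was Itgax (chr7:128129526-128150657), a subunit of the CD11c/CD18 integrin. Its level was 5.63, 6.75 and 7.38 in the LFD pools and 8.27, 9.79 and 9.94 in the HFD pools of experiments 2, 3 and 4. Every HFD pool lay above every LFD pool. The difference (HFD minus LFD) was 2.75 (SE 0.13, limma, adjusted p = 0.165), and the means were 9.33 ± 0.92 (SD, n = 3 pools) and 6.59 ± 0.88 (SD, n = 3 pools). Myh15, a myosin heavy chain, had the largest difference of the 18820 genes, 3.85 (SE 0.20), from 2.75, 3.19 and 2.89 in the LFD pools to 6.33, 7.56 and 6.48 in the HFD pools. Its LFD levels lay under the dim limit of 4.32, which limits the size of the difference. Eno2 (chr6:124760053-124769673), an enolase of glycolysis, was at 4.87, 4.70 and 5.36 in LFD and 6.52, 6.52 and 6.92 in HFD pools, again without overlap (difference 1.67, SE 0.10).

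The other 9 of the 12 higher genes had differences of 1.17 to 1.78. Xylt1, the xylosyltransferase that begins glycosaminoglycan chains, differed by 1.78 (SE 0.11), and Fam20c, a secretory pathway kinase, by 1.17 (SE 0.10). Fzd7, a Wnt receptor, differed by 1.58 (SE 0.10) and Gpr137b, a lysosomal membrane protein, by 1.32 (SE 0.10). The peptidases Anpep (CD13) and Dpep2 differed by 1.25 (SE 0.10) and 1.44 (SE 0.12). F7, coagulation factor VII, differed by 1.70 (SE 0.11), with 4.78, 5.79 and 7.01 in LFD and 6.30, 7.67 and 8.70 in HFD pools. F7 was higher with HFD in each experiment, although the HFD pool of experiment 2 lay below the LFD pool of experiment 4. Fhdc1 (1.18) and Rasgef1a (1.19) complete the 12, and all 12 had an adjusted p of 0.165 in limma. Rasgef1a was at 4.12, 3.96 and 4.08 in LFD pools, under the dim limit, which limits the size of its difference. Like Myh15, it passed that limit only through its HFD pools (5.22, 5.22 and 5.29).

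The lower gene with the smallest p was Lilra5 (chr7:4237643-4243690), a leukocyte immunoglobulin-like receptor. It was at 6.47, 6.98 and 6.43 in LFD and 5.18, 5.19 and 4.83 in HFD pools (difference -1.56, SE 0.13, limma, adjusted p = 0.165). P2ry13, an ADP receptor, was at 8.90, 8.21 and 8.00 in LFD and 7.28, 6.53 and 6.76 in HFD pools (-1.51, SE 0.13). The diets did not overlap for either receptor. Cxcl13 (chr5:95956939-95961068), the chemokine that draws B cells, was at 10.31, 9.87 and 10.63 in LFD and 8.32, 7.67 and 9.15 in HFD pools (-1.89, SE 0.17), also without overlap.

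Siglech, a lectin of plasmacytoid dendritic cells and some macrophages, had the largest difference among the 12 lower genes (-2.10, SE 0.26). It was at 7.30, 6.36 and 6.26 in LFD and 4.63, 4.16 and 4.84 in HFD pools. The other 5 markers of plasmacytoid dendritic cells did not have the same direction in all 3 experiments. Icosl, which binds ICOS on T cells, differed by -1.01 (SE 0.12). Il13ra1, part of the receptor for IL-13, differed by -0.89 (SE 0.11). Sult1a1, a sulfotransferase (-1.22), Abhd6, a monoacylglycerol lipase (-0.99), Rasgrp2, an exchange factor for Rap (-0.95), and Ssh2, a cofilin phosphatase (-0.90), were lower in all 3 experiments, as were Gm4951 (-1.05) and Ly6e (-1.02). Adjusted p in limma was between 0.165 and 0.179 for the 12 lower genes.

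**Figure D2:**
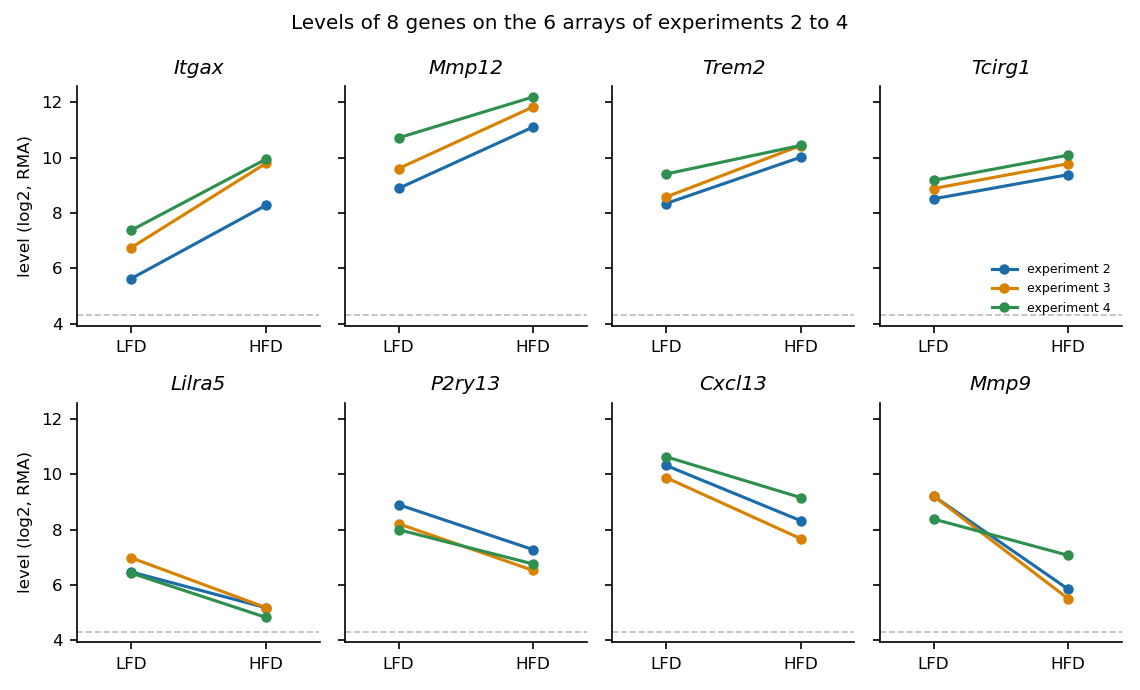
Log2 levels (vertical axis) of 4 higher and 4 lower genes in the LFD and HFD pools, with a line for each of experiments 2, 3 and 4 and the dim limit of 4.32 dashed. All lines of the upper row go up, all lines of the lower row go down, and the LFD and HFD levels of each of the 8 genes do not overlap. Of all 18820 genes, 1561 higher and 852 lower genes had no overlap either.

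Lipid-associated macrophage genes had the largest median difference of the lists. Of 20 measured, 15 were higher and 0 lower by a nominal p under 0.05, and 16 were higher and 0 lower in all 3 experiments (80%, against 17.4% of all genes). Their median difference was 0.92, against 0.01 over all genes, with medians of 1.31, 1.01 and 0.59 in experiments 2, 3 and 4. The median was thus smallest in experiment 4, whose LFD pool had the highest mean of these genes (10.52, against 9.46 and 9.68). Trem2, a lipid receptor, was at 8.34, 8.58 and 9.41 in LFD and 10.01, 10.44 and 10.44 in HFD pools, a difference of 1.52 (SE 0.19, limma, adjusted p = 0.179). Mmp12, the macrophage elastase, was at 8.89, 9.61 and 10.71 in LFD and 11.11, 11.83 and 12.19 in HFD pools (1.97, SE 0.19). The diets did not overlap for either gene. Gpnmb, a glycoprotein of lysosomes and the surface, was at 7.77, 8.74 and 11.22 in LFD and 11.11, 11.91 and 12.21 in HFD pools (2.50, SE 0.52). Its LFD level in experiment 4 stood above the HFD level of experiment 2, so the groups overlapped. Pld3, a lysosomal nuclease, differed by 0.91 (SE 0.11), Lgals3, galectin-3, by 1.05 (SE 0.18) and Cd36, the fatty acid receptor, by 0.38 (SE 0.11). Plin2, the lipid droplet coat protein, differed by 1.62, 0.48 and 0.57 in experiments 2, 3 and 4 (0.89, SE 0.27, and 0.52 without experiment 2). Itgax, Mmp12, Lipa and Ctsd belong to this list too.

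Genes of resident macrophages were lower as a group in experiments 2 and 3, and in experiment 4 their median was near 0. Of 22 measured, 0 were higher and 10 lower by a nominal p under 0.05, and 10 were lower in all 3 experiments (45.5%, against 12.2% of all genes). The medians were -0.83, -1.58 and 0.05 in experiments 2, 3 and 4, and 21, 22 and 10 of the 22 genes were lower. Cx3cr1, the fractalkine receptor, was at 7.93, 7.06 and 7.92 in LFD and 5.60, 5.91 and 5.27 in HFD pools (-2.04, SE 0.32, limma, adjusted p = 0.216), lower in every HFD pool. Timd4, a phosphatidylserine receptor, was at 7.85, 7.34 and 6.65 in LFD and 5.70, 4.97 and 5.78 in HFD pools (-1.80, SE 0.33). Cd163, the haemoglobin scavenger receptor, was at 9.62, 9.87 and 8.52 in LFD and 7.91, 7.46 and 8.49 in HFD pools, so that the pools of experiment 4 differed by -0.03 and those of experiments 2 and 3 by -1.71 and -2.40. The chemokines Ccl24 and Ccl8 differed by -1.69 (SE 0.37) and -0.86 (SE 0.19). Without experiment 4, 18 of the 22 genes were lower by a nominal p under 0.05, and without experiment 2, 4 were. Without the block 6 were lower, and over all 8 arrays 4. The mean level of the list in the LFD pools was 10.31, 10.24 and 9.09 in experiments 2, 3 and 4, and 9.22, 8.72 and 8.98 in the HFD pools, so the LFD pool of experiment 4 stood below the other LFD pools.

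Osteoclasts are multinucleated relatives of macrophages that dissolve bone with acid, cathepsin K and phosphatase. Of 13 osteoclast-like genes, 7 were higher and 1 lower by a nominal p under 0.05, and 7 were higher and 3 lower in all 3 experiments (median 0.44). Ctsk, cathepsin K, was at 6.02, 5.81 and 8.50 in LFD and 8.83, 9.66 and 9.96 in HFD pools (2.70, SE 0.48), without overlap. Dcstamp, a fusion protein, differed by 1.79 (SE 0.17), and its LFD level in experiment 2 (3.29) was dim. Mmp9, a gelatinase that the list also holds, was at 9.21, 9.21 and 8.38 in LFD and 5.85, 5.51 and 7.07 in HFD pools (-2.79, SE 0.52), lower in every HFD pool. Without experiment 2 or without experiment 4, 4 of the 13 genes were higher by a nominal p under 0.05. The list shares Ctsk with the lysosomal list below, Atp6v0d2 with the vacuolar H+-ATPase list and Mmp9 with the matrix remodelling list. Other lists share members too, such as Slc2a1 in glycolysis and HIF targets, so their counts are not independent. Among 13 matrix remodelling genes, 7 were higher (Mmp12, and Plau, urokinase, 1.25, SE 0.15, and its receptor Plaur, 0.72, SE 0.13, with the smallest p) and 1, Mmp9, was lower by a nominal p under 0.05 (median 0.78). The medians of the 13 were 1.21, 0.66 and 0.27 in experiments 2, 3 and 4, beside fibroblast marker medians of 0.84, 1.29 and -0.58, whose part in the result was not tested.

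**Figure D3:**
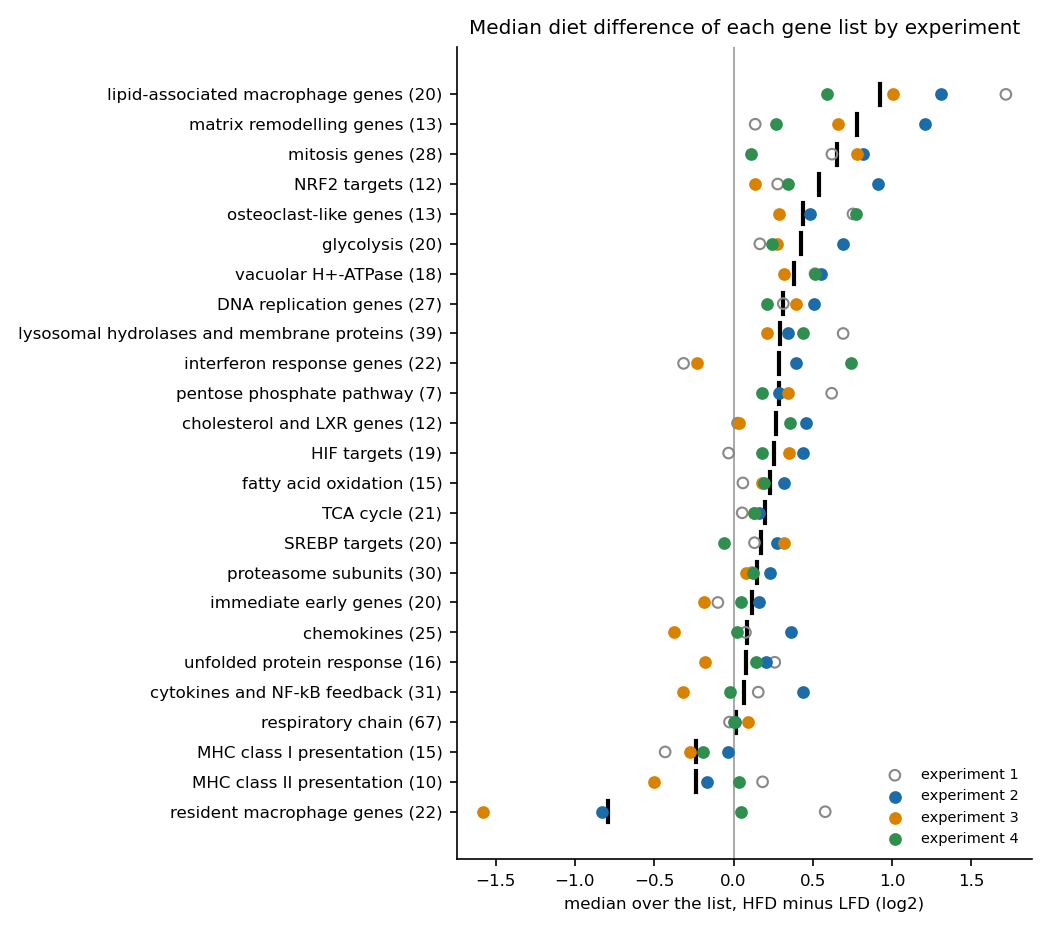
Median over each list of the difference HFD minus LFD (horizontal axis, log2), with 1 point per experiment, experiment 1 as open grey points, and a black bar for the median of the mean differences of experiments 2 to 4. Numbers in parentheses are measured genes. Lipid-associated macrophage genes lie furthest to the right, and resident macrophage genes lie left of 0 in experiments 2 and 3 and right of 0 in experiments 4 (0.05) and 1 (0.58).

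Lysosomal genes were higher as a group by their counts and medians, and 0 of them were lower by a nominal p under 0.05 in limma, as in each alternative run. The vacuolar H+-ATPase pumps protons into lysosomes through a membrane part (V0) and an ATP-splitting part (V1). Of its 18 measured genes, 11 were higher and 0 lower by a nominal p under 0.05, and 14 were higher and 0 lower in all 3 experiments (77.8%, median 0.38). Tcirg1, a V0 subunit, was at 8.51, 8.89 and 9.18 in LFD and 9.39, 9.78 and 10.09 in HFD pools (0.89, SE 0.09, limma, adjusted p = 0.165). The V0 subunit Atp6v0a1 differed by 0.76 (SE 0.11), Atp6v0e by 0.62 (SE 0.10) and Atp6v0d2, a subunit abundant in osteoclasts, by 2.08 (SE 0.36). The V1 subunits Atp6v1b2 and Atp6v1a differed by 0.96 (SE 0.12) and 0.96 (SE 0.17). The list's medians were 0.55, 0.32 and 0.51 in experiments 2, 3 and 4.

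Of 39 lysosomal hydrolases and membrane proteins, 18 were higher and 0 lower by a nominal p under 0.05, and 26 were higher and 0 lower in all 3 experiments (66.7%, median 0.29). Gusb, beta-glucuronidase, was at 8.40, 9.08 and 9.11 in LFD and 9.39, 10.06 and 10.00 in HFD pools (0.95, SE 0.09, limma, adjusted p = 0.165). Lipa, the lysosomal acid lipase, was at 10.25, 10.76 and 10.91 in LFD and 11.55, 11.53 and 11.63 in HFD pools (0.93, SE 0.15). No LFD pool reached an HFD pool for either gene. Galc, a galactosylceramidase, differed by 0.62 (SE 0.11) and Ctsd, cathepsin D, by 0.76 (SE 0.14). Without experiment 2 or without experiment 4, 9 of the 39 genes were higher by a nominal p under 0.05.

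Promoters of these genes were searched for CACGTG, the core of the element that TFEB and related lysosomal factors bind. The windows come from RefSeq promoters (GRCm38.p6, 250 bases before to 50 after the start). CACGTG was in 4 of 12 vacuolar H+-ATPase genes with a promoter (33.3%) and in 10 of 37 lysosomal genes (27%), against 9.57% of the measured genes and 8.09% of all genes with a promoter. CGTGAC, which can overlap CACGTG, was in 6 of the 12 (50%) and 9 of the 37 (24.3%), against 12.1% of the measured genes. Motifs were counted on both strands. The windows below are those of the members with the motif and the smallest p, with the motif in capitals, and a match is not a measured binding site.
Atp6v0e, chr17:26676359-26676444, plus strand: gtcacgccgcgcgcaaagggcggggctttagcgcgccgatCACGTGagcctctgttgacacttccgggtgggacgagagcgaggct
Atp6v1a, chr16:44139345-44139430, minus strand: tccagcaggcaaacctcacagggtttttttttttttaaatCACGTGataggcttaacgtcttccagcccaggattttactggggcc
Ctsd, chr7:142387880-142387965, minus strand: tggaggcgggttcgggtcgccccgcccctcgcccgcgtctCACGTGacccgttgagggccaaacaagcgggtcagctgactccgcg

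Glycolysis turns glucose to pyruvate and lactate. Of 20 measured genes, 11 were higher and 1 lower by a nominal p under 0.05, and 12 were higher and 1 lower in all 3 experiments (60%, median 0.43). Next to Eno2, the smallest p were those of Pkm, pyruvate kinase (0.65, SE 0.12), Aldoa, aldolase (0.62, SE 0.12), and Pgam1, phosphoglycerate mutase (0.87, SE 0.18). Pgam1 was at 8.25, 9.11 and 9.19 in LFD and 9.57, 9.82 and 9.78 in HFD pools, and its largest difference was that of experiment 2. Slc2a1, the glucose transporter GLUT1, was at 7.04, 6.87 and 8.46 in LFD and 8.15, 8.34 and 8.69 in HFD pools (0.94, SE 0.27, adjusted p = 0.38), and the groups overlapped. Hk2, the inducible hexokinase, was at 6.87, 7.02 and 7.05 in LFD and 7.90, 6.94 and 7.87 in HFD pools. Hk2 was thus higher in experiments 2 and 4 and not in experiment 3. The medians of the list were 0.69, 0.28 and 0.24 in experiments 2, 3 and 4. Without experiment 2 the count of higher genes was 4, without the block it was 6. The pentose phosphate pathway supplies NADPH, and 3 of 7 genes were higher (Pgd 0.79, SE 0.22, Tkt 0.53, SE 0.15, and Taldo1 0.40, SE 0.12) and 0 lower by a nominal p under 0.05 (median 0.29). In limma 0 of the 7 were higher by that p without experiment 2 or without experiment 4, and without experiment 2 the differences of Pgd and Tkt were 0.52 and 0.35.

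The mitochondrial lists differed among themselves. Of 67 genes of the respiratory chain, 1 (Ndufc1, 0.43, SE 0.10) was higher and 1 (Ndufc2, -0.44, SE 0.12) lower by a nominal p under 0.05, and the median was 0.02. In all 3 experiments 20 of the 67 were higher (29.9%, against 17.4% of all genes) and 5 lower (7.46%, against 12.2%). Of 21 genes of the TCA cycle, 12 were higher and 2 lower in all 3 experiments (57.1% and 9.52%), while 1 higher (Dlst, 0.27, SE 0.09) and 1 lower (Idh2, -0.40, SE 0.11) passed a nominal p under 0.05 (median 0.20). Fatty acid oxidation had 5 of 15 genes higher and 0 lower by that p, and 11 higher in all 3 experiments (73.3%, median 0.23). Hadha, a subunit of the trifunctional protein, was at 8.69, 9.17 and 9.10 in LFD and 9.55, 9.83 and 9.70 in HFD pools (0.71, SE 0.10, limma, adjusted p = 0.195), without overlap. Hadhb, the other subunit, differed by 0.41 (SE 0.10), Slc25a20, the carnitine carrier, by 0.40 (SE 0.10) and Acads by 0.33 (SE 0.09). Cpt1a, the entry enzyme, differed by 0.23 (SE 0.12). Without experiment 2, 1 oxidation gene was higher by a nominal p under 0.05, and without experiment 4, 2 were. Without the block 4 TCA cycle genes were higher by that p, and over all 8 arrays 5 TCA cycle and 4 respiratory chain genes were.

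Of 12 cholesterol and LXR genes, 4 were higher and 0 lower by a nominal p under 0.05 (median 0.27), and 5 were higher in all 3 experiments. The medians were 0.45, 0.03 and 0.35 in experiments 2, 3 and 4, and the median was 0.14 without experiment 2. Abcg1, a cholesterol exporter, was at 7.39, 8.29 and 8.26 in LFD and 8.66, 9.18 and 9.33 in HFD pools (1.08, SE 0.11, limma, adjusted p = 0.165). Nr1h3, the oxysterol receptor LXRα, was at 5.79, 6.44 and 6.91 in LFD and 7.04, 7.52 and 7.72 in HFD pools (1.05, SE 0.12). No pools overlapped for either gene. Nceh1, a cholesteryl ester hydrolase, differed by 1.24 (SE 0.21) and Lpcat3, a phospholipid acyltransferase, by 0.38 (SE 0.12). Of 20 SREBP targets, 4 were higher and 2 lower by a nominal p under 0.05 (median 0.17). The lower genes were the lipid synthesis enzymes Scd1, at 7.59, 8.51 and 8.83 in LFD and 6.72, 7.37 and 6.50 in HFD pools (-1.45, SE 0.32), and Fasn (-0.39, SE 0.11). Dhcr7, of cholesterol synthesis, and Srebf1 differed by 0.44 (SE 0.11) and 0.37 (SE 0.10), so the list held both directions. Without experiment 2, 1 SREBP target was higher and 1 lower by that p, and without experiment 3, 0 were higher and 2 lower.

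**Figure D4:**
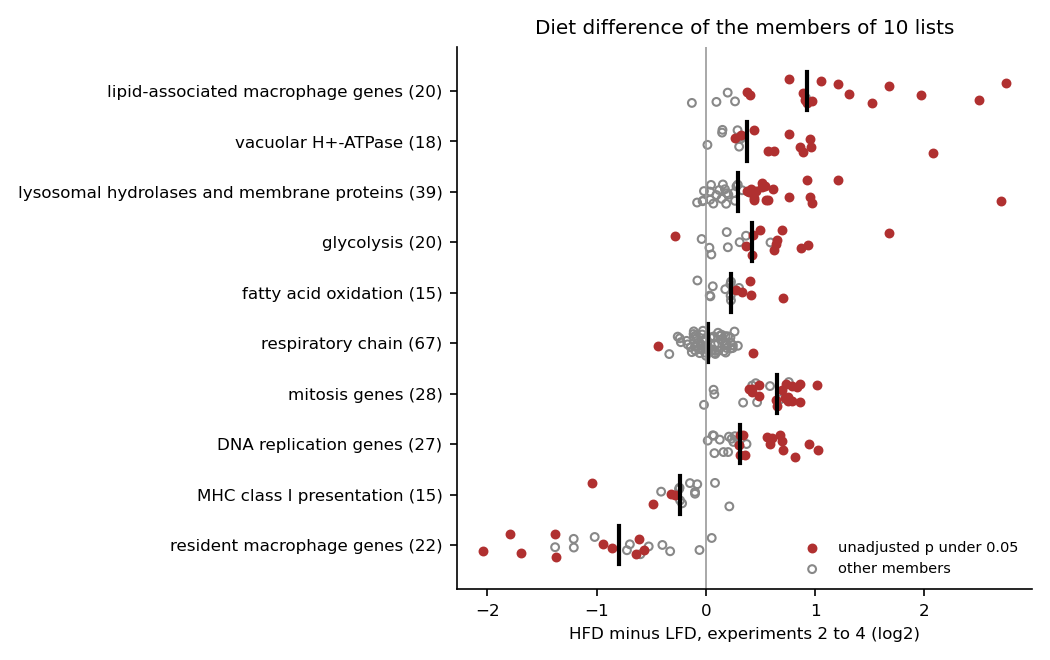
Difference HFD minus LFD over experiments 2 to 4 (horizontal axis, log2) of every measured member of 10 lists, filled red where the unadjusted p was under 0.05, with a black bar at the list median. Respiratory chain genes lie around 0 (median 0.02), mitosis genes have a median of 0.65 and resident macrophage genes a median of -0.79. Vertical scatter within a list has no meaning.

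Genes of cell division were higher as a group in ATMs from obese mice, with the smallest median in experiment 4. Of 28 mitosis genes, 18 were higher and 0 lower by a nominal p under 0.05, and 21 were higher and 0 lower in all 3 experiments (75%, median 0.65). Their medians were 0.82, 0.78 and 0.11 in experiments 2, 3 and 4. Mki67, the Ki-67 antigen of dividing cells, was at 6.92, 7.25 and 7.52 in LFD and 8.30, 8.48 and 7.97 in HFD pools (1.02, SE 0.22, limma, adjusted p = 0.3). Bub1b, a spindle checkpoint kinase, was at 5.50, 6.26 and 6.22 in LFD and 6.30, 6.99 and 6.79 in HFD pools (0.70, SE 0.10). Every HFD pool lay above every LFD pool for both genes. Stmn1, which binds tubulin, differed by 0.87 (SE 0.17) and Cenpe, a kinetochore motor, by 0.79 (SE 0.17). Of 27 DNA replication genes, 14 were higher and 0 lower by a nominal p under 0.05, and 17 were higher in all 3 experiments (63%, median 0.31). Cdt1, a licensing factor, was at 5.62, 6.22 and 6.15 in LFD and 6.73, 7.05 and 7.05 in HFD pools (0.95, SE 0.11, adjusted p = 0.166), without overlap. Mcm6, a subunit of the replicative helicase, differed by 0.68 (SE 0.12), Gins1, another replication factor, by 0.61 (SE 0.10) and Pole, a DNA polymerase, by 0.56 (SE 0.13). Without experiment 2, 2 mitosis and 3 replication genes were higher by a nominal p under 0.05, without experiment 3, 9 and 5 were, and without the block 6 replication genes were.

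The promoters of these lists were searched for 2 known cell cycle elements. TTTGAA, the cell cycle homology region, was in 20 of 24 mitosis genes with a promoter (83.3%) and in 3 of 24 replication genes (12.5%), against 17.3% of the measured genes. TTTCGCGC (or GCGCGAAA on the other strand), an E2F site, was in 1 of the 24 mitosis genes (4.17%) and 7 of the 24 replication genes (29.2%), against 0.522% of the measured genes. Windows of the members with the smallest p that hold the motif, in capitals, are shown so that the elements can be read in place.
Bub1b, chr2:118598211-118598260, plus strand: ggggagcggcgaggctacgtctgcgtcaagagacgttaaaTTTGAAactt
Mki67, chr7:135716432-135716517, minus strand: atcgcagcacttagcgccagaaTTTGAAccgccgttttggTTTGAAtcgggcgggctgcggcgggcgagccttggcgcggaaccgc
Mcm6, chr1:128359764-128359851, minus strand: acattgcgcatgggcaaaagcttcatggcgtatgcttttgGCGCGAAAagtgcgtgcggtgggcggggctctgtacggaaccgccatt

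Inflammatory genes had no common direction. Of 31 genes of cytokines and NF-kB feedback, 7 were higher and 4 lower by a nominal p under 0.05 (median 0.07). In all 3 experiments 9 were higher (29%, against 17.4% of all genes) and 4 lower (12.9%, against 12.2%). The other 18 were mixed, and the lower share was near that of all genes. Tnf was at 10.92, 11.66 and 11.68 in LFD and 12.21, 11.91 and 12.45 in HFD pools (0.77, SE 0.22, limma, adjusted p = 0.391), without overlap. Il6 was at 7.97, 7.21 and 7.68 in LFD and 8.93, 7.93 and 8.04 in HFD pools (0.68, SE 0.15), higher in each experiment with overlap between groups. Il1b was at 6.41, 8.77 and 8.18 in LFD and 7.98, 7.22 and 6.97 in HFD pools, higher in experiment 2 and lower in experiments 3 and 4. Il1rn, the IL-1 receptor antagonist, differed by 2.65, 0.65 and 0.92 in experiments 2, 3 and 4 (1.41, SE 0.44, and 0.78 without experiment 2). Tnfaip2 differed by 1.64 (SE 0.29). The difference of Tnf was 0.51 without experiment 2. Nos2, inducible nitric oxide synthase, was at 4.80, 4.80 and 4.65 in LFD and 3.59, 4.16 and 3.71 in HFD pools (-0.93, SE 0.14), below the dim limit in every HFD pool. Arg1, arginase, was at 5.42, 5.46 and 8.30 in LFD and 4.04, 4.50 and 5.16 in HFD pools (-1.83, SE 0.46), and Socs3, a feedback inhibitor of cytokine signals, differed by -0.64 (SE 0.19). Without experiment 4 the differences of Arg1 and Socs3 were -1.17 and -0.40. The list's medians were 0.44, -0.32 and -0.02 in experiments 2, 3 and 4. Without experiment 2, 3 genes were higher and 7 lower by a nominal p under 0.05, without experiment 4, 2 were higher and 2 lower, and over all 8 arrays 7 were higher and 2 lower.

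Of 25 chemokines, 4 were higher and 7 lower by a nominal p under 0.05 (median 0.09). Ccl22, which draws CCR4-bearing T cells, was at 4.64, 5.46 and 5.46 in LFD and 6.59, 6.79 and 6.99 in HFD pools (1.60, SE 0.15, limma, adjusted p = 0.165). Cxcl14 was at 4.63, 4.76 and 4.68 in LFD and 6.08, 6.35 and 5.76 in HFD pools (1.37, SE 0.14). Neither chemokine overlapped between the diets. Cxcl1, which draws neutrophils, differed by 1.29 (SE 0.24). Without experiment 3, 9 chemokines were higher and 6 lower by a nominal p under 0.05. Ccl2, a chemokine that draws monocytes, differed by 0.48, -0.57 and 0.02 in experiments 2, 3 and 4.

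Of 15 MHC class I presentation genes, 0 were higher and 4 lower by a nominal p under 0.05, and 9 were lower in all 3 experiments (60%, against 12.2% of all genes, median -0.24). H2-Q6, a class I heavy chain, was at 8.52, 8.42 and 9.01 in LFD and 7.76, 7.68 and 7.40 in HFD pools (-1.04, SE 0.22, limma, adjusted p = 0.291). Class I heavy chains are near-identical copies, so H2-Q6 and H2-K1 (-0.28, SE 0.10) may share signal. The immunoproteasome subunits Psmb9 and Psmb8 differed by -0.49 (SE 0.17) and -0.32 (SE 0.11). With each array centred on its median 1 class I gene was lower by a nominal p under 0.05, and over all 8 arrays 7 were. Without experiment 2, 3 or 4, 2, 1 and 1 were lower. Of 30 proteasome subunits, by contrast, 8 were higher and 0 lower, and 16 were higher in all 3 experiments (53.3%, median 0.15), led by Psmb6 (0.95, SE 0.14), Psmd1 (0.61, SE 0.10), Psmd8 (0.59, SE 0.12) and Psmc4 (0.42, SE 0.10). Without experiment 2, 4 of the 30 were higher by a nominal p under 0.05. Of 10 MHC class II genes, 1 (Ctss, cathepsin S, 0.44, SE 0.13) was higher and 0 lower (median -0.24).

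Of 22 interferon response genes, 6 were higher and 2 lower by a nominal p under 0.05 (median 0.29). The medians were 0.39, -0.23 and 0.74 in experiments 2, 3 and 4, beside endothelial medians of -0.86, 2.01 and -1.65, and the part of endothelial RNA in this was not tested. Without experiment 2 or without experiment 4, 0 of the 22 genes were higher and 1 lower by a nominal p under 0.05 in limma, and without experiment 3, 10 were higher and 0 lower. Over all 8 arrays 3 were higher and 4 lower. Isg15, a ubiquitin-like modifier, was at 7.10, 7.52 and 7.32 in LFD and 8.41, 7.74 and 8.67 in HFD pools (0.96, SE 0.27). The difference was smallest in experiment 3, though the groups did not overlap. Ifit1 differed by 1.25 (SE 0.39) and Oasl1 by 1.16 (SE 0.38), and Usp18, which removes Isg15, by -0.59 (SE 0.19). Without experiment 4 the differences of Ifit1 and Usp18 were 0.77 and -0.34.

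HIF-1α drives glycolytic genes when oxygen is low. Of 19 HIF targets, 6 were higher and 0 lower by a nominal p under 0.05, and 8 were higher and 1 lower in all 3 experiments (42.1% and 5.26%, median 0.25). Hilpda, a lipid droplet protein, was at 6.02, 7.48 and 7.90 in LFD and 8.75, 8.42 and 8.91 in HFD pools (1.56, SE 0.41), without overlap. Mxi1, a Myc antagonist, differed by 0.38 (SE 0.09) and Pgk1 by 0.50 (SE 0.13). Vegfa was at 5.11, 6.10 and 6.38 in LFD and 6.63, 6.54 and 6.65 in HFD pools (0.74, SE 0.28). Without experiment 2 the differences of Hilpda and Vegfa were 0.98 and 0.35. Hif1a itself was at 8.32, 8.11 and 8.31 in LFD and 8.39, 8.02 and 8.30 in HFD pools, a difference of -0.01 (SE 0.09, limma, adjusted p = 0.983). Without experiment 2, 1 HIF target was higher by a nominal p under 0.05, and without experiment 3 or without the block 3 were. ACGTG, the hypoxia response core, which CACGTG contains, was in 13 of 17 HIF targets with a promoter (76.5%), against 24.6% of the measured genes. The Mxi1 window shows it in capitals.
Mxi1, chr19:53329307-53329391, plus strand: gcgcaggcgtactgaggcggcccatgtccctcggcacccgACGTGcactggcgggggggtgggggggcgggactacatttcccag

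Of 12 NRF2 targets, which guard against oxidants, 4 were higher and 0 lower by a nominal p under 0.05 (median 0.54). The medians were 0.91, 0.13 and 0.34 in experiments 2, 3 and 4. Prdx1, a peroxiredoxin, differed by 0.73 (SE 0.16), Gclc, of glutathione synthesis, by 0.57 (SE 0.13), Txn1, thioredoxin, by 0.61 (SE 0.15) and Txnrd1, its reductase, by 0.75 (SE 0.27, and 0.48 without experiment 2). Hmox1, haem oxygenase, differed by -0.31 (SE 0.12), with lower HFD levels in each experiment (-0.19 without experiment 3). Without experiment 2, 1 target was higher by a nominal p under 0.05, and without experiment 4, 2 were.

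The array also names 295 miRNA genes, of which 56 were not dim. MiRNAs pair through their seed (bases 2 to 8) with target mRNAs. The genes described here were chosen after their values were seen. They are among the 5 of these 56 with the same direction in all 3 experiments and a nominal p under 0.05. Of all genes, 7.15% were higher and 3.27% lower by that p alone, so 5 of 56 is near the background. Whether the probe sets read the precursor, the host transcript or the mature RNA was not tested. Mature sequences from RefSeq (GRCm38.p6) are shown for the higher genes, with the seed in capitals, since shared seeds join them to family members.
miR-23b-5p, chr13:63300492-63300512: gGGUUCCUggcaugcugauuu
miR-27b-3p, chr13:63300760-63300780: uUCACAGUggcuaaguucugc
miR-27b-5p, chr13:63300718-63300739: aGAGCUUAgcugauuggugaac
miR-221-3p, chrX:19146307-19146329: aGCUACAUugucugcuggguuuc
miR-221-5p, chrX:19146344-19146369: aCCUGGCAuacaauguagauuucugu

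Mir23b was at 4.95, 5.83 and 5.50 in LFD and 6.52, 6.91 and 7.36 in HFD pools (1.51, SE 0.18, limma, adjusted p = 0.179), without overlap. Mir27b, its neighbour on the plus strand of chromosome 13, was at 5.88, 4.73 and 5.81 in LFD and 6.33, 6.71 and 7.45 in HFD pools (1.36, SE 0.33). Both lie with Mir24-1 within 792 bases inside Aopep (chr13:62964893-63326096), the aminopeptidase gene that hosts them. Aopep itself was at 5.76, 5.68 and 5.87 in LFD and 6.16, 6.43 and 6.70 in HFD pools (0.66, SE 0.13), so host and miRNA genes had the same direction. Mir27a, on another chromosome, has the seed of miR-27b-3p and differed by -0.05 (SE 0.11). Mir221 differed by 1.13 (SE 0.22). Mir222, which has the seed of miR-221-3p, differed by 1.22, -0.16 and 2.33 in experiments 2, 3 and 4. The lower genes of the 5 were Mir687 (-0.53, SE 0.10) and Mir703 (-0.41, SE 0.15).

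The last comparison asked whether the diet difference in experiment 1 was another than in experiments 2 to 4. No gene passed an adjusted p under 0.05 for the interaction term in limma over 8 arrays (0 of 18820, 0%, smallest adjusted p = 0.9998). By a nominal p under 0.05, 695 genes (3.69%) passed, a smaller share than a threshold of 0.05 gives where no gene differs. The genes named below are thus a description only. Experiment 1 is a single pair, so its own spread is unknown. It matched experiment 3 in fat content and weeks of diet, and not experiments 2 and 4. A different effect of diet in experiment 1 and the other traits of that experiment cannot be told apart here. Of the 5567 genes with the same direction in experiments 2, 3 and 4, 3456 (62.1%) had that sign in experiment 1. The genes with the smallest p and a larger difference in experiment 1 were S100a4 (2.21 in experiment 1, -0.14 in experiments 2 to 4), Cd68, the lysosomal macrophage antigen (2.45 and 0.39), F7 (4.12 and 1.70), Tlr8, a sensor of RNA (2.46 and 0.41), Ccl9 (3.22 and 0.37) and Myo1f (2.78 and 0.59). Cd68 was at 8.64 in the LFD pool of experiment 1, against 11.57, 11.75 and 11.66 in the other LFD pools, and at 11.09 in its HFD pool. The LFD pool of experiment 1 was also the one with the lowest Adgre1. Those with a smaller difference in experiment 1 were Htr2a (-0.59 and 1.42), Bbs10 (-0.71 and 0.78), Mocs1 (-1.20 and 0.10), Vps37a (-0.59 and 0.37), Gm10139 (-1.11 and 0.11) and Gata3 (-1.52 and -0.08).

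Among the lists, lipid-associated macrophage genes had a median of 1.72 in experiment 1 and 0.92 in experiments 2 to 4. Resident macrophage genes had a median of 0.58 in experiment 1, where 16 of 22 were higher, and -0.79 in experiments 2 to 4. Pan-macrophage markers had a median of 1.18 in experiment 1 and 0.03 in experiments 2 to 4, and they moved with both lists there. They include Adgre1, by whose level experiment 1 was left out, so this is a description only. Mitosis genes had a median of 0.62 and 0.65, and vacuolar H+-ATPase genes 0.51 and 0.38. These differences between lists were not tested.

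**Figure D5:**
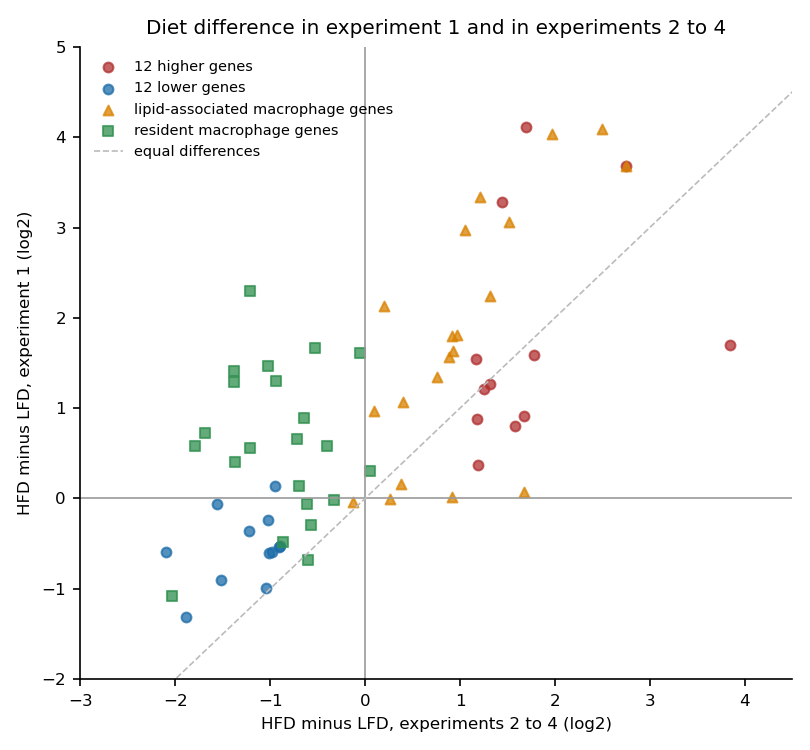
Difference HFD minus LFD (log2) in experiment 1 (vertical axis) against experiments 2 to 4 (horizontal axis) for 12 higher genes, 12 lower genes (those of smallest p) and 2 lists, 1 point per gene, with equal differences dashed. Of the resident macrophage genes, 16 of 22 lie above 0 in experiment 1, although their median in experiments 2 to 4 is -0.79.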

How the data were processed

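The authors hybridised RNA of F4/80-selected cells to Affymetrix whole-transcript arrays and deposited log2 values per probe set after RMA, whose version is not given in the sources used here. These log2 values were taken as deposited. Symbols came from GEO's platform annotation. Of 35556 probe sets, 21218 had 1 symbol, 1881 several and 12457 none, and the brightest probe set stood for each of 18820 genes. A gene was dim if fewer than 3 of the 6 arrays exceeded a level of 4.32 (log2 of 20), and 10608 genes were not dim.

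Diets were compared with limma 3.58.1 in R 4.3.3, with experiment as a block and Benjamini-Hochberg adjustment over all genes at a threshold of 0.05. Experiment 1 was compared by an interaction term over 8 arrays. The code was tested on simulated data. Pairing came from the labels' experiment number, and the pools of an experiment deviated together at r = 0.36, 0.128 and -0.0232 in experiments 2, 3 and 4. Nothing in the labels ties a number to more than the experiment. The p-values measure the spread of the paired difference between experiments, which also differ in fat content and weeks of diet. In limma the variance of a gene is also drawn toward that of the other genes.

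Named genes were 12 higher and 12 lower genes of smallest p among those not dim and of 1 direction in all 3 experiments. Others were up to 4 members of each list with the smallest p and its well-known members. Cell type markers and 6 genes in each direction for the interaction were also named. Part of the genes the study measured by qRT-PCR or showed in heat maps were named too. Of such genes without values above, Mrc1, Pdk4, Itgam, Nlrp3, Myd88, Cd14, Tlr2 and Tlr4 were mixed over experiments 2 to 4. Il10, Tgfb1 and Ldha were higher with HFD in each. The miRNA genes and Aopep lay outside this rule. The members, the lists and the tests were chosen with earlier results of these data known. The number of arrays limits the precision.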

Additional observations from a re-analysis of the deposited data

How the results depend on the processing

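No setting gave a gene with an adjusted p under 0.05. The smallest adjusted p in limma was 0.165 in the reported fit and lay between 0.0508 (all 8 arrays) and 0.985 (without experiment 2) over the limma alternatives, and it was 0.479 in the methods' t-test. Leaving out each experiment in turn gave 563 to 1431 higher and 289 to 844 lower genes by a nominal p under 0.05, with the fewest without experiment 2. The methods' t-test gave 815 higher and 390 lower genes, and without dim probe sets 393 were lower. The pairing was examined too: with no replicate block 1178 genes were higher and 502 lower, and with experiment as a random block 1432 and 647.

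Of the genes given with values, 9 changed the sign of the difference of experiments 2 to 4 under some setting. Leaving out each experiment in turn, the difference ran from -0.056 to 0.0277 for Hif1a, from -1.38 to 0.183 for Il1b, from -0.0208 to 0.336 for Adgre1, from -0.277 to 0.252 for Ccl2, from -0.244 to 0.0246 for Gata3, from -0.112 to 0.033 for Mir27a and from -0.0206 to 0.161 for Mocs1. Over all 8 arrays it was 0.0976 for Ccl2, -0.194 for Gm10139, -0.227 for Mocs1 and 0.45 for S100a4, and with each array centred it was 0.00509 for Hif1a. The cause was not tested. The number of pools limits what can pass an adjusted test, and differences of genes near the dim limit of 4.32 may be understated.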

Other observations

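Among cells that selection should remove, adipocyte markers held 1 higher and 2 lower genes of 9 by a nominal p under 0.05. The higher gene was Lep, leptin (0.36, SE 0.11). Retn, the hormone resistin, was at 6.22, 6.25 and 7.36 in LFD and 4.03, 5.04 and 4.29 in HFD pools (-2.16, SE 0.38), without overlap. Adipoq, adiponectin, differed by -1.02 (SE 0.23), with HFD levels of 3.58, 4.39 and 4.25 around the dim limit of 4.32. Of 10 mast cell and eosinophil markers 1 was higher (Ccr3, an eotaxin receptor, 1.27, SE 0.34) and 1 lower (Prg2, under the dim limit on every array). Without experiment 4, 5 were higher. Cpa3, a mast cell protease, was at 3.64, 3.53 and 3.79 in LFD and 7.07, 4.88 and 3.81 in HFD pools, so it was above the dim limit in the HFD pools of experiments 2 and 3. Of 11 B cell markers 2 were lower (Bank1 -1.39, SE 0.30, and Cd79b -1.03, SE 0.25), and of 12 T cell markers 1 was (Cd4, -1.21, SE 0.26). Of 9 monocyte markers 1 was higher, of 11 dendritic cell markers 1 was lower, and of 9 neutrophil markers 1 was lower. Of 8 NK cell, 9 mesothelial and 2 red blood cell markers 0 passed a nominal p under 0.05 in limma. All NK cell and red blood cell markers were dim, so their counts say little. Not dim were 2 of the 11 B cell, 4 of the 12 T cell and 1 of the 9 neutrophil markers. The same held for 4 of the 10 mast cell and eosinophil markers. The B cell and neutrophil markers that were not dim were the lower ones (Csf3r of neutrophils, -0.69, SE 0.15).

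Of 16 genes of the unfolded protein response 0 were higher and 2 lower by a nominal p under 0.05. Herpud1, of protein degradation at the endoplasmic reticulum, was at 9.49, 9.74 and 9.46 in LFD and 8.89, 8.68 and 8.75 in HFD pools (-0.79, SE 0.13), without overlap. Of 20 immediate early genes, which tissue digestion can induce, 2 were higher and 4 lower, among them Egr2 (0.90, SE 0.22), Ier3 (-0.69, SE 0.12), Btg2 (-0.45, SE 0.09) and Jund (-0.38, SE 0.11). Without experiment 3, 5 of them were higher and 2 lower in limma, and without experiment 2 or without experiment 4, 0 were higher and 3 lower. These counts stand beside 7.15% higher and 3.27% lower of all genes.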
